A study of Ovis aries with 12 samples.

Results

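The highest and the lowest succinate diets of a feeding trial in Tan sheep (Ovis aries) were compared directly: 3 RNA-seq libraries from sheep fed 2% succinate against 3 from sheep fed 0.5% succinate, which are 6 of the 12 libraries of the series. All animals were 5 months old, of the same breed, housed singly and fed one basal diet, to which the acid was added at these shares. The trial held 36 sheep, 9 on each of 4 diets, and the libraries of the basal diet and of 1% succinate entered no comparison here. Whether the 3 libraries of a diet come from separate animals is not stated, and the p-values below rest on the scatter of these libraries, which may be technical. The series title concerns rumen epithelial cells and their proliferation, but the labels name no tissue.

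Succinate is an acid that rumen microbes release and that animal cells make and oxidise in the tricarboxylic acid cycle, where succinyl-CoA ligase forms it and succinate dehydrogenase removes it. A cell-surface receptor, SUCNR1, senses it outside the cell. The rumen wall has an absorptive stratified epithelium on its inner face and, beneath it, smooth muscle layers with enteric nerves, vessels, connective tissue and some fat.

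Smooth muscle markers were abundant in all 6 libraries, and most stratified epithelium markers were under 1 FPKM. The 16 genes of the smooth muscle contraction list summed to between 43532.9 and 75449.9 FPKM (reads divided by gene length and library total, scaled here between libraries). Of 20 stratified epithelium markers, 7 were listed at 0 in all 6 libraries and 17 stayed under 1 FPKM in each. The 3 tested were PKP1 at 6.94 to 14.8 FPKM, PPL at 1.04 to 3.56 and SBSN at 0.134 to 4.78. KRT5, the basal keratin, was at 0 throughout, and KRT14 reached 0.0614 FPKM in a single library. None of 11 T and natural killer cell markers passed the filter for testing, and none of 7 neutrophil and mast cell markers did. Fewer cells of a type and less RNA per cell cannot be told apart in such bulk samples.

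The libraries held 15637779 to 18717309 reads on genes. Pearson's r between libraries over the tested genes was 0.95 to 0.9803 within a diet and 0.9538 to 0.975 between diets, so the ranges overlapped. The mean r of each 2% library was 0.9746 to 0.9794 with its own diet and 0.9634 to 0.966 with the other. For the 0.5% libraries it was 0.9512 (library 1) to 0.958 with their own diet and 0.9588 to 0.9737 with the other. Library 2 of 0.5% succinate stood apart in its trend with gene length. Its deviation from the mean of the 6 libraries fell with gene length (Spearman rho -0.596 across genes). That of library 2 of 2% succinate ran the other way (0.4909), and those of the other 4 libraries were 0.0953 to 0.1472. Genes are not independent replicates, and these correlations are descriptions.

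Of 11607 genes with at least 1 FPKM in 3 or more of the 6 libraries, none passed limma's two-sided test at a Benjamini-Hochberg adjusted p of 0.05 (0.0% of genes tested). The smallest adjusted p was 0.0848. At an unadjusted p under 0.05 there were 740 genes, 6.38% of those tested; 299 of them were higher at 2% succinate (2.58%) and 441 lower (3.8%). limma-voom on the recovered reads called 0 genes and had 712 under that unadjusted level (6.13%). The values of the 2 diets did not overlap for 1584 genes (13.6%), 736 of them higher at 2% (6.34%) and 848 lower (7.31%). With 3 libraries against 3, an exact permutation test of a single gene cannot go below 0.1. All differences below are therefore given as levels with their spread, and an unadjusted p is printed only to rank them. The log2 difference, always 2% minus 0.5% on the log2(FPKM + 1) scale, had a median of 0.0047 over all genes tested.

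The gene with the smallest p, LOC101120481, was named after its values were seen. It lies on chromosome 3 at 49559667 to 49561102 on the plus strand in the deposited positions. The annotation there is a sphingolipid delta(4)-desaturase DES1, the name of the enzyme that makes ceramide from dihydroceramide. The listed gene length of 1436 bases fills the whole span between these positions, so the gene model shows no intron. Whether LOC101120481 yields an active enzyme was not tested. Its FPKM was 1.13, 1.41 and 1.14 in the 0.5% libraries and 5.94, 4.86 and 5.58 in the 2% libraries. All 3 libraries of 2% succinate stood above all 3 of 0.5%, a 4.45-fold difference of the means. The log2 difference was 1.54 (SE 0.15, limma adjusted p = 0.0848), and it was 1.67 with an adjusted p of 0.0237 once each library's trend with gene length was removed. Over the alternatives, leaving aside the fit without an expression filter, its limma adjusted p ran from 0.0237 to 0.876. DEGS1, the desaturase gene on chromosome 12, had 34.7 ± 3.91 FPKM at 0.5% and 30.7 ± 6.61 at 2% (mean ± SD, n = 3 here and below); the 2 genes could share reads, so the split between them is uncertain.

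LOC101119068, also picked after its values were seen, is annotated in the deposited table as a low-quality glycosyltransferase model. Its FPKM was 0.0536, 1.17 and 0.0505 at 0.5% succinate, resting on 2, 40 and 2 reads, and 3.42, 5.02 and 8.13 at 2%. The 2% libraries were all higher, with a log2 difference of 2.22 (SE 0.36, limma adjusted p = 0.431), and the lowest counts here are too few for a fold.

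Among genes with a symbol, the smallest p-values belonged to genes lower at 2% succinate. The leading genes named from here on were picked for groups that do not overlap, so that separation is part of the choice. NMB encodes neuromedin B, a peptide of the bombesin family that makes gut smooth muscle contract. Its FPKM was 6.90, 4.83 and 3.64 at 0.5% and 0.905, 0.913 and 0.595 at 2%. Each 2% library was under 1 FPKM and each 0.5% library above 3, with a log2 difference of -1.73 (SE 0.22, limma adjusted p = 0.268). NMBR, its receptor, had at most 0.0529 FPKM in any of the 6 libraries.

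GAP43, a growth cone protein of nerve fibres, read 5.20, 5.75 and 7.08 FPKM at 0.5% and 1.02, 1.20 and 2.44 at 2%. The groups were apart, and the log2 difference was -1.49 (SE 0.23, limma adjusted p = 0.431). AGFG2, an Arf GTPase-activating protein relative, was 12.1, 10.1 and 9.40 FPKM against 5.53, 4.72 and 4.04. Its 2% libraries were again all lower. KCNJ8, the Kir6.1 pore of the ATP-sensitive potassium channel in smooth muscle and pericytes, averaged 19.4 ± 4.97 FPKM at 0.5% and 9.65 ± 1.02 at 2%. ARRDC2, an arrestin-domain protein, averaged 37.8 ± 4.75 and 21.4 ± 1.78 FPKM. RAB20, a small GTPase of endosomes, averaged 6.89 ± 1.43 and 2.90 ± 0.961.

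Other leading genes on the lower side included TRNP1, STAMBPL1, DCTPP1 and ISOC1. DCTPP1, which breaks down dCTP, averaged 14.1 ± 2.57 FPKM at 0.5% and 7.53 ± 1.06 at 2%. STAMBPL1, a deubiquitinating enzyme, averaged 2.85 ± 0.117 and 1.30 ± 0.227. TRNP1, a nuclear protein known from brain development, and ISOC1 had log2 differences of -0.90 and -0.70.

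On the higher side, PGM2, which interconverts phosphate esters of ribose and glucose, led the ranking. Its FPKM was 12.8, 12.3 and 14.4 at 0.5% and 23.9, 21.8 and 25.6 at 2%. The lowest 2% library was 21.8 and the highest 0.5% library 14.4, and the log2 difference was 0.80 (SE 0.13, limma adjusted p = 0.431). RAB27B, a small GTPase of secretory vesicle release, was 1.63, 3.66 and 3.86 FPKM at 0.5% and 7.72, 16.8 and 12.8 at 2%. This was the largest fold among the 12 leading genes on this side, 4.08, with a log2 difference of 1.72 (SE 0.32, limma adjusted p = 0.737). HDAC9, a class IIa histone deacetylase, averaged 5.18 ± 0.294 FPKM at 0.5% and 8.40 ± 1.06 at 2%. CDC25B, a phosphatase that activates cyclin-dependent kinases, averaged 9.23 ± 0.891 and 14.4 ± 1.43.

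ADAM33, a metalloprotease of smooth muscle and fibroblasts, averaged 24.4 ± 2.44 FPKM at 0.5% and 37.6 ± 3.96 at 2%. DGKE, which phosphorylates diacylglycerol, averaged 18.6 ± 0.74 and 28.9 ± 3.88. TP53INP2, an autophagy regulator, averaged 3.53 ± 0.497 and 6.51 ± 0.589. FOXN2, BTBD7, FAM221B, LCNL1 and WHRN completed the 12, with log2 differences from 0.61 for FAM221B to 0.83 for WHRN. None of the 24 leading genes passed the adjusted threshold, with adjusted p from 0.268 to 0.737 (limma).

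**Figure D1:**
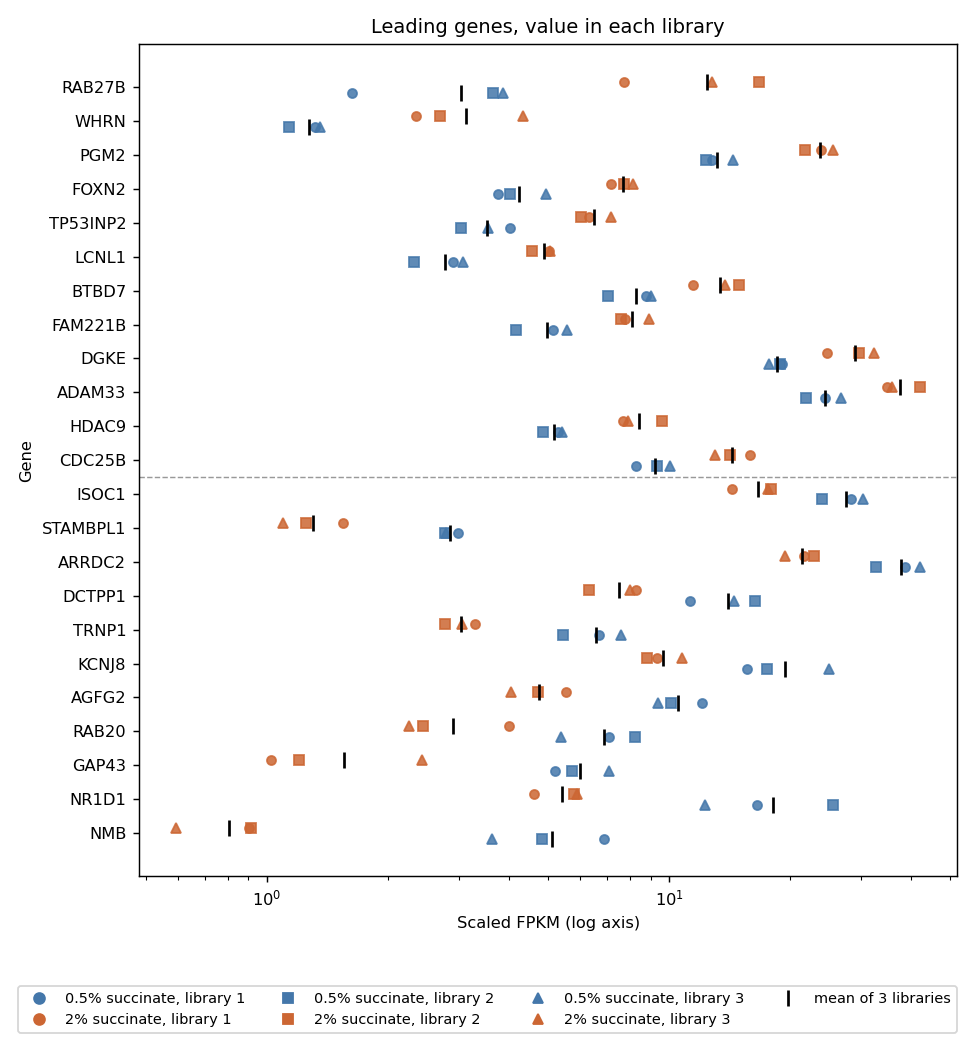
FPKM scaled between libraries (x axis, logarithmic) of leading genes in each direction (y axis, ordered by log2 difference), with 1 point per library and a black bar at the mean of each diet. The genes were picked for groups that do not overlap, so the gap in each row is part of the choice; NMB shows the widest gap.

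Among the circadian clock genes NR1D1, CIART, DBP and TEF had lower means at 2% succinate and RORA, ARNTL, CLOCK and CRY1 higher means, and none passed after adjustment. The clock is a feedback loop in which CLOCK and BMAL1 (listed as ARNTL) drive transcription of PER, CRY, NR1D1 and the PAR-domain factors DBP and TEF, and NR1D1 in turn represses ARNTL. All 18 genes of the list were tested; 9 had an unadjusted p under 0.05, against 6.38% of all genes, 4 of them higher and 5 lower, and 6 did not overlap between the diets, against 13.6% of all genes. The list's median log2 difference was -0.01, beside 0.0047 over all genes, and turned to 0.11 without scaling and 0.01 with quantile normalization.

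NR1D1, the repressor of the loop, had 16.5, 25.6 and 12.3 FPKM at 0.5% and 4.61, 5.79 and 5.90 at 2%. The 2% libraries lay close together and all below the 0.5% libraries, with a log2 difference of -1.52 (SE 0.25, limma adjusted p = 0.431). CIART, another repressor, had 17.1, 21.0 and 13.9 FPKM at 0.5% and 8.19, 12.2 and 9.55 at 2%. Its groups were also apart (log2 difference -0.74, SE 0.20). CRY2, which inhibits CLOCK and BMAL1, averaged 13.7 ± 0.681 FPKM at 0.5% and 10.7 ± 0.373 at 2%.

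DBP had 53.0, 76.5 and 35.9 FPKM at 0.5% and 28.2, 37.8 and 29.4 at 2%. Library 2 of 2% stood above library 3 of 0.5%, so these groups overlapped (log2 difference -0.72, SE 0.27, limma unadjusted p = 0.0266). TEF averaged 27.8 ± 4.50 and 17.6 ± 4.36 FPKM. On the opposite side, RORA, an activator of ARNTL, had 3.09, 2.19 and 3.34 FPKM at 0.5% and 4.50, 4.64 and 4.71 at 2%. All 2% libraries were higher, with a log2 difference of 0.55 (SE 0.16). ARNTL averaged 3.03 ± 0.868 and 5.18 ± 1.49 FPKM, with overlapping groups, CLOCK averaged 4.29 ± 1.11 and 6.13 ± 0.201, and CRY1 averaged 4.16 ± 1.12 and 6.10 ± 0.545.

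The other 9 genes of the list, among them PER1, PER2, PER3, NR1D2, HLF and NFIL3, overlapped between the diets and had p above 0.05. PER1, a core repressor, averaged 9.46 ± 2.49 FPKM at 0.5% and 6.78 ± 1.81 at 2%, and PER2 averaged 7.42 ± 1.40 and 7.99 ± 2.19. NPAS2, a CLOCK relative outside the list, averaged 1.21 ± 0.474 and 1.56 ± 0.306. The number of the 18 under an unadjusted p of 0.05 was 4 without library 3 of 2% succinate (3.1% of all genes in that fit) and 11 without library 3 of 0.5% (12.8%). It was 5 without library 1 of 0.5% (8.71%) or library 1 of 2% (4.75%), and 10 with the length trend removed (6.5%). The labels give no hour of sampling, so the time of day and the diet cannot be told apart for these genes.

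**Figure D2:**
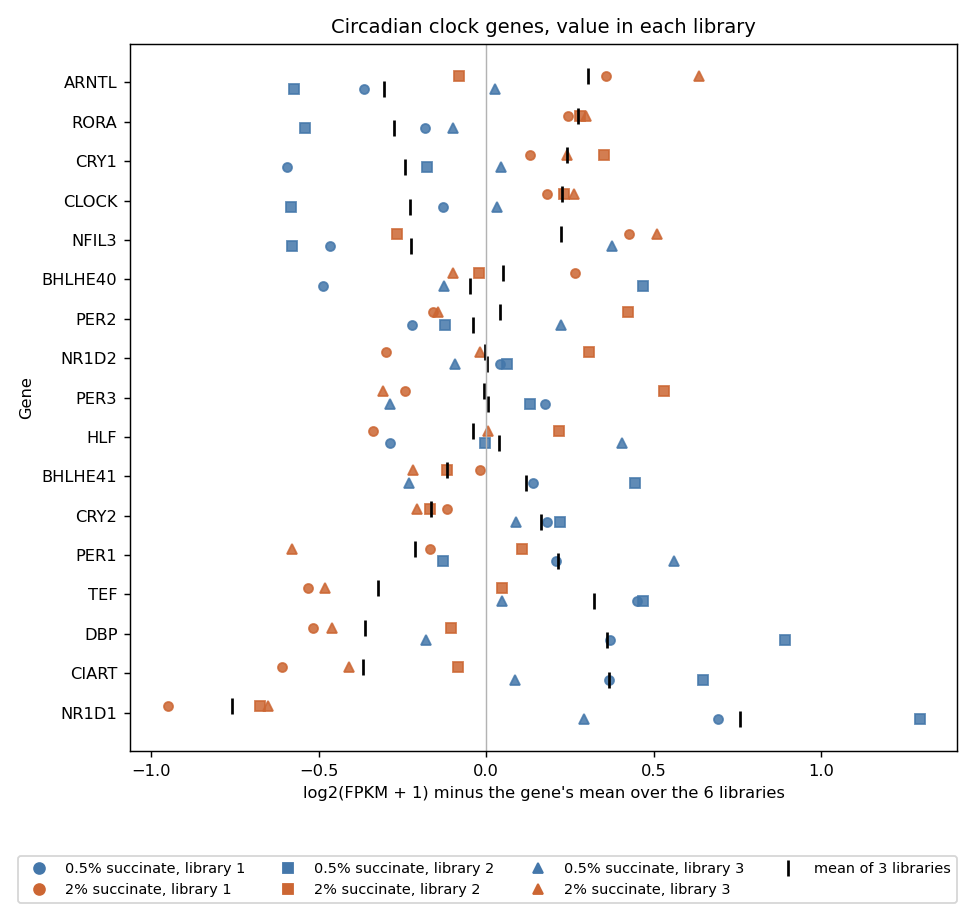
Circadian clock genes (y axis), each as log2(FPKM + 1) minus its own mean over the 6 libraries (x axis), with 1 point per library and a black bar at the mean of each diet. NR1D1, CIART, DBP and TEF sit to the left at 2% succinate, ARNTL, RORA, CRY1 and CLOCK to the right, and PER2, PER3 and NR1D2 are mixed.

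Genes of the contractile apparatus were mostly lower at 2% succinate. Of the 16 members of the smooth muscle contraction list 14 were lower and 2 higher (4 higher without scaling), with a median log2 difference of -0.47 against 0.0047 over all genes. This median was -0.35 without scaling and only -0.04 under quantile normalization, which gives every library the same distribution of values. Of these 16 genes 5 had an unadjusted p under 0.05, all lower (3.8% of all genes), and 9 did not overlap, all lower (7.31% of all genes). None passed after adjustment. The list summed to 75449.9, 74372.8 and 60152.6 FPKM at 0.5% and to 50599.7, 47988.4 and 43532.9 at 2%, so each 2% library held less of this RNA than any 0.5% library.

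ACTG2, the gamma smooth muscle actin of the gut, had 7034, 7629 and 7685 FPKM at 0.5% and 5141, 4032 and 3367 at 2%. The groups were apart, with a log2 difference of -0.85 (SE 0.26, limma unadjusted p = 0.0117, adjusted p = 0.737), and -0.35 under quantile normalization. TAGLN, the actin-binding protein transgelin, had 9495, 9182 and 7771 FPKM against 6272, 5015 and 4912. These too were apart (log2 difference -0.71, SE 0.26). TPM2, a tropomyosin that lies along the actin filament, averaged 3287 ± 313 and 2027 ± 285 FPKM. SMTN, smoothelin, averaged 527 ± 102 and 341 ± 38.2, and CNN1, calponin, averaged 7179 ± 1774 and 4439.5 ± 714.

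DES, the intermediate filament desmin, had 16303, 14043 and 10060.4 FPKM at 0.5% and 8661, 9806 and 7873 at 2%. No 2% library reached the lowest 0.5% library (log2 difference -0.59, SE 0.30, limma unadjusted p = 0.0801). MYL9 and MYL6, the myosin light chains, and TPM1 were likewise lower without overlap, with log2 differences of -0.46, -0.48 and -0.32. MYH11, the myosin heavy chain, averaged 3162 ± 502 and 2754 ± 421 FPKM with overlapping groups. MYLK, CALD1 and SYNM had log2 differences of -0.06, -0.00 and 0.01, too close to 0 for a direction, and SYNPO2 one of 0.29.

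ACTA2, the vascular smooth muscle actin, was uneven within both diets. Its FPKM was 609, 241 and 302 at 0.5% and 481, 37.2 and 82.8 at 2%. Library 1 was the highest of each diet, and the groups overlapped (log2 difference -1.62, SE 0.96, limma unadjusted p = 0.143). The contraction list had no gene under an unadjusted p of 0.05 without library 3 of 2% (3.1% of all genes), 2 without library 2 of 2% (3.79%) and 4 to 6 without any one of the others. Its median stayed between -0.60 and -0.39 when each library was left out. With the length trend removed it was -0.45, with 7 genes under 0.05 (6.5% of all genes).

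Of 14 smooth muscle regulators tested, 10 were higher at 2%, with a median log2 difference of 0.19, or 0.05 with the length trend removed. PLN, phospholamban, which restrains the calcium pump of the reticulum, had 180.4, 221 and 164 FPKM at 0.5% and 266, 216 and 348 at 2%. Only library 2 of 2% lay within the 0.5% range (log2 difference 0.54, SE 0.22, limma unadjusted p = 0.0408). PLN was the single member of the 14 under 0.05 (6.38% of all genes). TRPC6, a cation channel, averaged 7.57 ± 4.84 and 14.6 ± 3.86 FPKM. MYOCD and SRF, which switch on contractile genes, averaged 5.03 ± 0.757 and 6.29 ± 1.73 and, for SRF, 59.2 ± 5.11 and 58.7 ± 5.53.

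**Figure D3:**
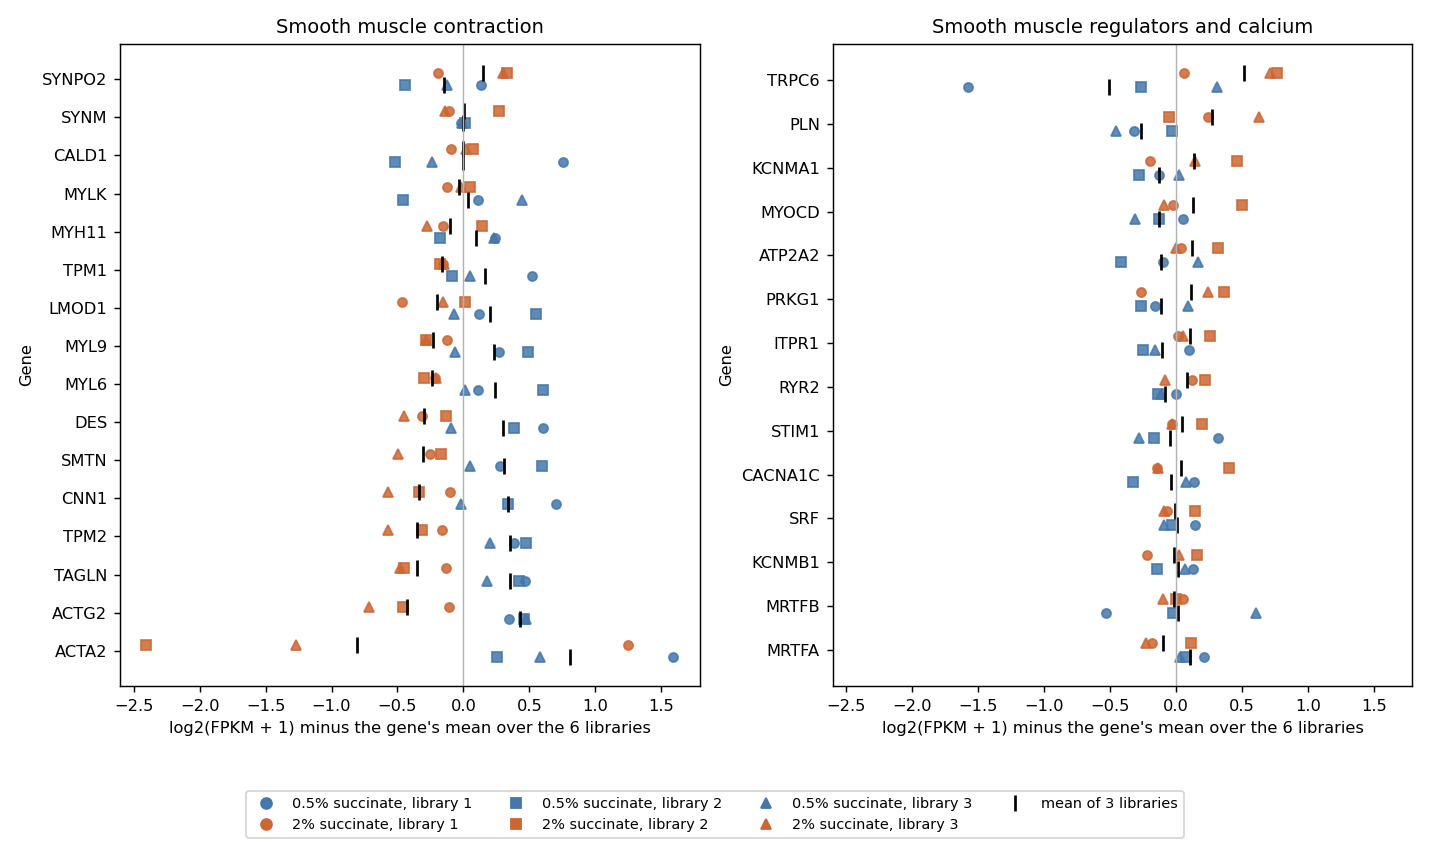
Genes of the contractile apparatus (left) and of smooth muscle regulation and calcium handling (right), each as log2(FPKM + 1) minus its mean over the 6 libraries (x axis), with 1 point per library and a black bar at the mean of each diet. On the left 9 genes, ACTG2 and TAGLN among them, have all 2% points below all 0.5% points, against 7.31% of all genes. On the right no gene has separate groups, against 13.6% of all genes.

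Cytosolic ribosomal protein genes were lower at 2% succinate in all 51 members tested, with a median log2 difference of -0.45 and a range of -1.17 to -0.09, although 2 were higher without scaling, 3 with the length trend removed and 5 without library 2 of 0.5%. Only 2 had an unadjusted p under 0.05 (3.8% of all genes were lower at this level) and 10 did not overlap (7.31% of all genes). The list was highest in library 2 of 0.5% succinate. Its score, the mean log2 deviation of the members, was 0.84 there, -0.20 and 0.05 in the other 0.5% libraries and -0.34 to -0.11 at 2%. Without that library 2 genes were under 0.05 (5.76% of all genes) and the median was -0.12, whereas without library 1 of 0.5% 19 of the 51 were (8.71%) and the median was -0.65. The median was -0.20 with the length trend removed and -0.06 under quantile normalization. Ribosomal protein genes are short, and library 2 of 0.5% is the one with relatively more reads on short genes. The part of gene length in the difference of this list was not tested.

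RPL6 had the largest difference of the list. Its FPKM was 710.0, 1430.3 and 1299 at 0.5% and 514, 410.0 and 553 at 2%, with a log2 difference of -1.17 (SE 0.30, limma unadjusted p = 0.00441) and -1.02 with the length trend removed. Every 2% library was below every 0.5% library. RPS16 averaged 2022 ± 702 and 1042 ± 57.9 FPKM. LOC105601845, annotated as an RPL10-like gene and named after its values were seen, averaged 243 ± 28.6 and 130.3 ± 10.3, while RPL10 itself averaged 1420 ± 717 and 995 ± 84.5. These copies could share reads.

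Several other lists also scored highest in library 2 of 0.5%, among them oxidative phosphorylation at 0.47, mitochondrial ribosomal proteins at 0.34, the proteasome at 0.295, succinate and the tricarboxylic acid cycle at 0.23 and the circadian clock at 0.13. Of 30 respiratory chain and ATP synthase genes 25 were lower, with a median of -0.17 that became 0.05 with the length trend removed and 0.06 without library 2 of 0.5%. NDUFS1, a complex I subunit, went against the list at 20.6 ± 0.985 and 25.5 ± 1.05 FPKM, without overlap. Of 30 proteasome genes 22 were lower (median -0.17, or -0.02 with the length trend removed), and PSMD3, PSMB7 and PSMD8 had an unadjusted p under 0.05 (3.8% of all genes were lower at this level). A single one of the 30 was under it with the length trend removed (6.5% of all genes), without library 2 of 0.5% (5.76%) or without library 1 of 2% (4.75%). None was without library 2 (3.79%) or 3 (3.1%) of 2%, and 4 were without library 1 (8.71%) or 3 (12.8%) of 0.5%. PSMD3, a subunit of the regulatory lid, averaged 33.4 ± 3.59 and 25.8 ± 0.517. Of 23 mitochondrial ribosomal protein genes 18 were lower, with a median of -0.10 that was 0.01 without scaling and 0.07 with the length trend removed.

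**Figure D4:**
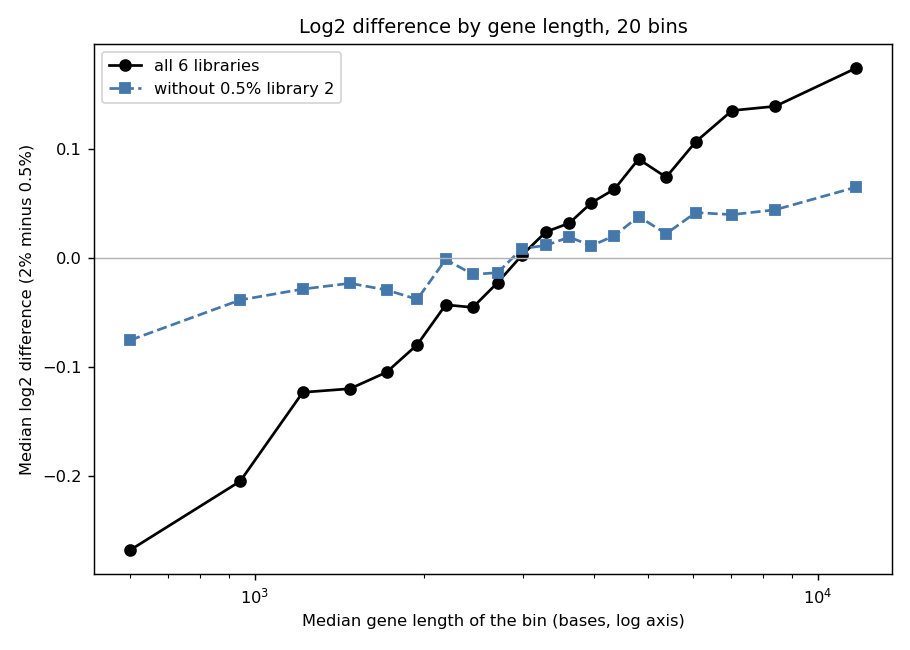
Median log2 difference (y axis, 2% minus 0.5%) of the genes tested, in 20 bins of about equal gene number by gene length (x axis, bases, logarithmic). With all 6 libraries the medians run from -0.27 in the shortest bin to 0.17 in the longest; without library 2 of 0.5% they run from -0.08 to 0.06.

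This length trend touched the whole comparison. Spearman's rho between the log2 difference and gene length across genes was 0.413 with all 6 libraries and 0.138 without library 2 of 0.5% succinate. Genes higher at 2% without overlap had a median length of 4836.5 bases and those lower 2090.0, against 3139 over all genes tested.

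Genes of succinate and the tricarboxylic acid cycle gave no shared direction: 8 of 20 tested were higher and 12 lower, with a median of -0.08 that was 0.05 without scaling and under quantile normalization and 0.07 with the length trend removed. PDHA1, of the pyruvate dehydrogenase complex, had 37.0, 35.9 and 38.3 FPKM at 0.5% and 45.7, 52.3 and 47.2 at 2%. OGDH, the 2-oxoglutarate dehydrogenase that makes succinyl-CoA, had 19.6, 25.3 and 20.7 against 26.5, 31.3 and 27.7. Both were higher in every 2% library, with log2 differences of 0.37 for each (SE 0.13 and 0.15, limma unadjusted p = 0.0178 and 0.034). They were among 3 of the 20 without overlap (13.6% of all genes), all 3 higher (6.34% of all genes). With the length trend removed the log2 differences were 0.33 for PDHA1 and 0.29 for OGDH (limma unadjusted p = 0.0122 and 0.114).

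Of the enzymes that handle succinate itself, SDHA, SDHB and SUCLG1 overlapped between the diets. SDHA, the catalytic subunit of succinate dehydrogenase, averaged 65.9 ± 11.2 FPKM at 0.5% and 55.6 ± 5.56 at 2%, and SDHB, its iron-sulphur subunit, averaged 13.3 ± 3.36 and 11.6 ± 1.04. SUCLG1, the alpha subunit of succinyl-CoA ligase, averaged 151 ± 40.5 and 132 ± 9.98. SUCLA2, its ATP-specific beta subunit, was higher without overlap at 27.1 ± 0.997 and 31.3 ± 4.38 (limma unadjusted p = 0.206). SUCNR1, the receptor, was under 1 FPKM in all 6 libraries, from 0.0527 to 0.811, and was not tested.

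Of 9 carboxylate and proton transport genes tested none had an unadjusted p under 0.05 (6.38% of all genes). SLC16A1, the monocarboxylate carrier MCT1, averaged 39.5 ± 18.0 and 37.5 ± 4.75 FPKM. Among 13 genes of ketone and short-chain fatty acid use, ACSL1, which activates long-chain fatty acids, averaged 25.8 ± 3.92 and 39.4 ± 6.74, and BDH2, a hydroxybutyrate dehydrogenase relative, averaged 16.5 ± 2.78 and 11.9 ± 1.48. Both were among the 3 of 13 without overlap (13.6% of all genes), and 10 of the 13 were lower. Of 15 hypoxia and HIF genes 7 were higher and 8 lower. VEGFA, the vessel growth factor, averaged 15.1 ± 2.67 and 22.1 ± 2.07 FPKM, whereas BNIP3 averaged 51.8 ± 11.5 and 34.3 ± 3.38 and ANKRD37 2.53 ± 0.466 and 1.43 ± 0.268. These 3 of the 15 were without overlap, against 13.6% of all genes.

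Of 29 S phase and mitosis genes tested, 26 had higher means at 2% succinate. The median log2 difference was 0.40, and none of the 29 had an unadjusted p under 0.05 (6.38% of all genes). A single one of the 29 was without overlap, against 13.6% of all genes. This was PLK1, a mitotic kinase (0.957 ± 0.251 and 1.48 ± 0.153 FPKM). The list summed to 152, 40.7 and 60.5 FPKM at 0.5% and to 108, 92.6 and 125 at 2%. Library 1 of 0.5% was the highest of all 6, and the other 0.5% libraries were the lowest. Without library 1 of 0.5%, 25 of the 29 had an unadjusted p under 0.05 (8.71% of all genes) and the median was 0.85; without any one of the others 0 or 1 did. Without library 2 of 0.5% the median was 0.16 and 22 of the 29 were higher.

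TOP2A, which untangles DNA, had 6.84, 0.966 and 2.31 FPKM at 0.5% and 4.69, 4.12 and 5.31 at 2%, and the 2% values lay within the 0.5% range. CKAP2, of the mitotic spindle, averaged 6.97 ± 6.33 and 12.5 ± 2.08, with overlap. MKI67 did not pass the filter and ran from 0.197 to 1.28 FPKM. In the replication helicase list 11 of 13 were lower, with a median of -0.16 and none under an unadjusted p of 0.05 (6.38% of all genes). This median was -0.03 without scaling, where 5 of the 13 were higher, -0.08 with the length trend removed, -0.09 with a filter at 5 FPKM and -0.28 without library 1 of 2%. MCM4 averaged 5.44 ± 0.354 and 4.26 ± 0.122 and MCM7 31.7 ± 2.05 and 26.9 ± 2.65, the 2 of the 13 without overlap (13.6% of all genes). Of 14 G1 cyclin and inhibitor genes 6 were higher and 8 lower. CCND3, a G1 cyclin, averaged 34.7 ± 1.71 and 26.4 ± 4.56 FPKM (limma unadjusted p = 0.0332, or 0.0814 with the length trend removed). It was the single one of the 14 without overlap (13.6% of all genes).

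Enteric neuron and adipocyte markers varied widely between libraries of the same diet. The enteric neuron list had lower means at 2% in all 8 tested members with a median of -0.67, but none had an unadjusted p under 0.05 (6.38% of all genes) or groups without overlap. It summed to 3.28, 112 and 141 FPKM at 0.5% and 11.96, 27.9 and 53.2 at 2%. Library 1 of 0.5% had almost none of this RNA, and without it all 8 had an unadjusted p under 0.05 (8.71% of all genes) and the median was -1.82. The median was -0.16 without library 2 of 0.5%, where 2 of the 8 were higher, -0.10 without library 3 of 0.5% and -0.26 without library 1 of 2%. VIP, a relaxing transmitter of enteric nerves, had 0.678, 8.74 and 15.8 FPKM against 0.346, 2.58 and 5.43. GAP43, by contrast, was 5.20 FPKM in library 1 of 0.5%, close to the other 0.5% libraries; the part of nerve content in its difference was not tested.

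Adipocyte markers were higher in all 7 tested members (median 0.89), through library 1 of 2% succinate: the list summed to 62.0, 226.5 and 139 FPKM at 0.5% and 927, 112 and 279 at 2%. ADIPOQ, adiponectin, had 0.0536, 39.4 and 14.9 FPKM against 211, 17.5 and 20.3. Without that library the median was 0.19. PLIN4, a lipid droplet protein, was even at 20.1, 12.9 and 15.6 against 23.3, 22.6 and 21.2, without overlap (limma unadjusted p = 0.0265). Of the skeletal muscle list, ACTA1, the skeletal actin, averaged 150.4 ± 23.7 and 101 ± 12.4 without overlap, while MYH2, a fast fibre myosin, had 39.5 FPKM in library 1 of 0.5% and 0.517 to 1.54 in the others.

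Macrophage and dendritic cell markers (6 of 12 higher, median 0.02), blood vessel endothelium (7 of 13 higher, median 0.03) and enteric glia (3 of 7 higher, median -0.13) had no member under an unadjusted p of 0.05 (6.38% of all genes). Without library 1 of 0.5% the macrophage median was -0.32, with 3 members under that level (8.71% of all genes), and the endothelium median was -0.28; without library 2 of 2% the glia median was 0.22. C1QB, a complement gene of resident macrophages, averaged 22.1 ± 9.42 and 20.5 ± 3.23 FPKM. Fibroblast and matrix genes were divided, with 11 of 20 higher. THBS1, thrombospondin, had 5.25, 3.19 and 3.28 FPKM against 7.11, 6.78 and 6.80, and all 2% libraries were higher (log2 difference 0.71, SE 0.18). FBN1, fibrillin, averaged 15.6 ± 4.46 and 25.9 ± 7.60 with overlap. Of these 20 genes 2 were without overlap, 1 higher and 1 lower (13.6% of all genes). In the separate basement membrane and adhesion list 5 of 15 were higher and 10 lower. Of these 15 genes 2 were without overlap, 1 higher and 1 lower (13.6% of all genes). The higher one was LAMA4, a laminin chain of vessel and muscle basement membrane, at 37.0 ± 11.2 and 56.9 ± 1.44.

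**Figure D5:**
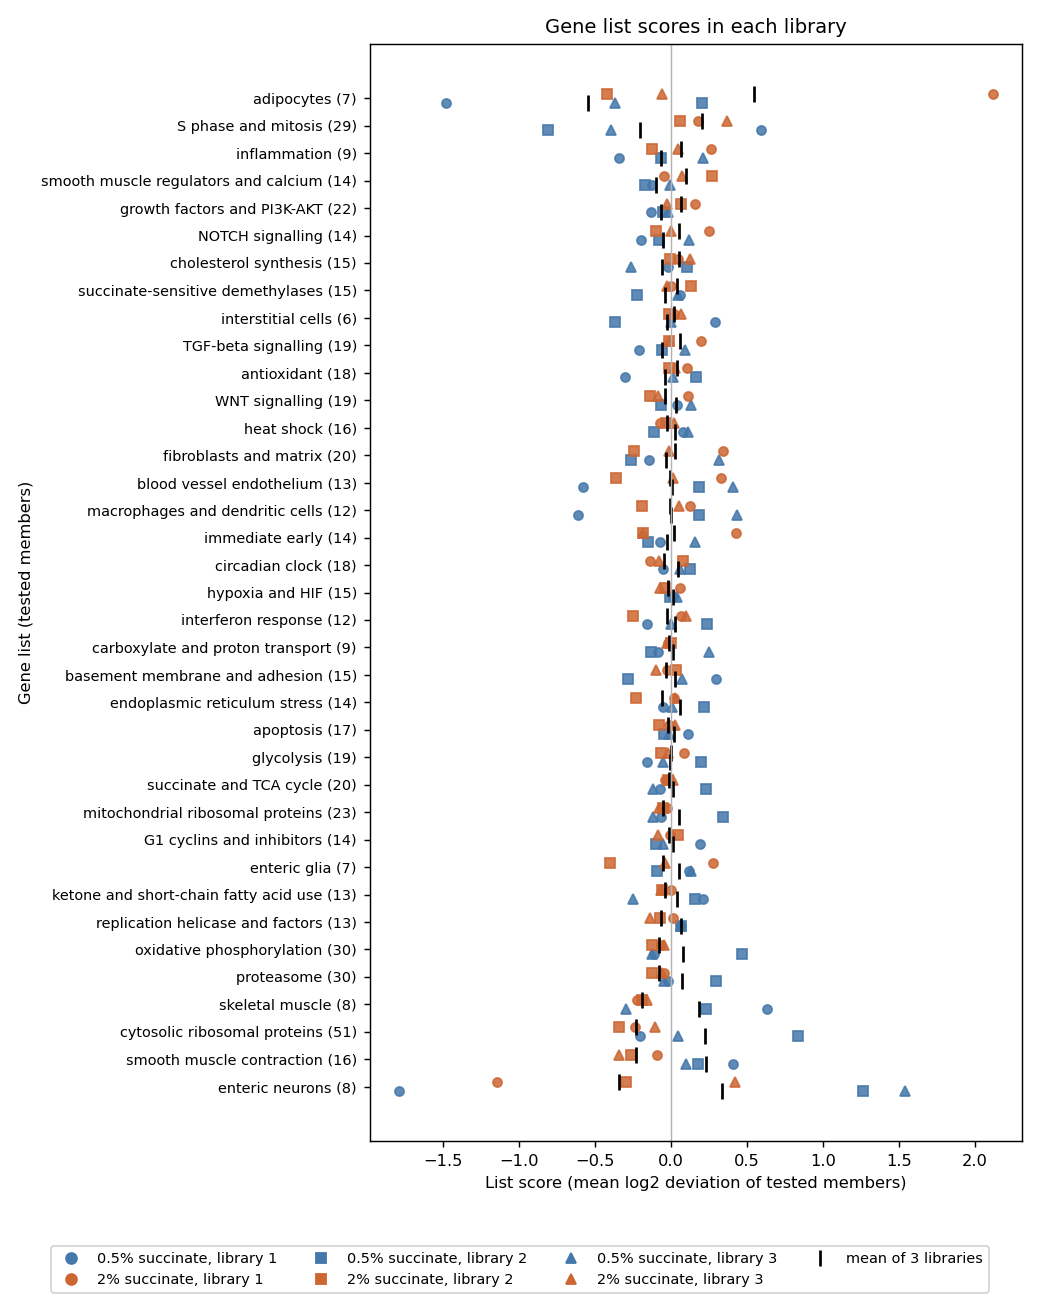
Score of each gene list with at least 5 tested members (y axis, number tested in brackets, ordered by median log2 difference) in each library (x axis, mean over members of log2(FPKM + 1) minus the gene's mean over the 6 libraries), with black bars at the mean of each diet. Adipocytes and enteric neurons spread most, S phase and mitosis has library 1 of 0.5% on the far right, and cytosolic ribosomal proteins have library 2 of 0.5% on the far right.

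In the signalling lists a few single genes had separate groups. These were 2 of 19 WNT genes, 1 of 19 TGF-beta genes and 0 of 14 NOTCH genes, against 13.6% of all genes. In WNT signalling, 11 of 19 were higher with a median of 0.04, yet FRZB, a secreted WNT antagonist, had 32.8, 15.6 and 16.9 FPKM at 0.5% and 8.92, 8.34 and 10.8 at 2%. All 2% libraries were lower (log2 difference -1.07, SE 0.27), as they were for WNT5A, a WNT ligand, at 14.8 ± 4.53 and 8.16 ± 1.37. Of 19 TGF-beta genes 12 were higher; CCN2, a matricellular target, had 20.2, 16.3 and 8.98 FPKM against 57.1, 26.8 and 27.8. The groups were apart, with a log2 difference of 1.22 (SE 0.37). Of 14 NOTCH genes 12 were higher (median 0.13), and none of the 14 was under an unadjusted p of 0.05 (6.38% of all genes).

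ISG15, a ubiquitin-like protein that interferon induces, had 3.14, 4.28 and 2.04 FPKM at 0.5% and 0.541, 0.841 and 1.02 at 2%, while IFIT1, another interferon target, had 15.1, 16.8 and 17.6 against 25.9, 21.6 and 30.3. ISG15 rested on 6, 10 and 10 reads at 2%. The 2 genes thus differed in opposite directions, and the interferon list as a whole had 6 of 12 higher. They were the 2 of the 12 without overlap (13.6% of all genes). In the inflammation list, TLR4, the lipopolysaccharide receptor, averaged 3.57 ± 0.621 and 5.22 ± 0.96. It was the single one of 9 without overlap (13.6% of all genes). LGALS1, galectin-1, had 666, 414 and 289 FPKM at 0.5% and 247, 199 and 210.1 at 2%. Each 2% library was lower, with a log2 difference of -0.98 (SE 0.30, limma unadjusted p = 0.0108). With the length trend removed this difference was -0.69 (limma unadjusted p = 0.0839). HINT1, a nucleotide hydrolase, averaged 22.6 ± 7.72 and 30.0 ± 22.6.

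Stress lists were mixed. Higher were 5 of 14 endoplasmic reticulum stress, 10 of 16 heat shock and 11 of 18 antioxidant genes. Without overlap were 2 of the 14, 3 of the 16 and 1 of the 18, against 13.6% of all genes. XBP1, a transcription factor of the unfolded protein response, averaged 50.9 ± 6.73 and 37.6 ± 2.73 FPKM, and BAG3, a co-chaperone of muscle, averaged 29.7 ± 1.38 and 22.8 ± 0.735, both lower without overlap. SRXN1, which repairs oxidised peroxiredoxins, averaged 30.3 ± 6.52 and 39.8 ± 3.10 with overlap. In the apoptosis list 2 of 17 were without overlap and in the growth factor list 2 of 22 (13.6% of all genes). In each list 1 of these was higher and 1 lower. The higher ones were XIAP, an inhibitor of caspases, and MET, the hepatocyte growth factor receptor. XIAP averaged 8.83 ± 2.14 and 13.4 ± 1.30, and MET averaged 5.98 ± 0.492 and 8.24 ± 1.08. No gene named in these lists passed the adjusted threshold in limma.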

How the data were processed

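Total RNA was isolated with Trizol and made into libraries with a NEBNext Ultra II kit, per the labels' protocols. Reads were handled with cutadapt 1.15, HISAT2 2.1.0 and HTSeq 0.9.1, per the submitters' processing notes. The authors deposited FPKM for 21257 genes; the genome build, annotation and strand setting are not given in the sources used here. Multiplied by gene length, 100% of values stepped in whole reads, within 0.01 of a read, hence the totals per library. A floor of 3 reads is 0.16 to 0.192 CPM here and covers counting error only. Without a stated strand setting, overlapping and antisense genes cannot be told apart.

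FPKM were divided by TMM factors (0.917 to 1.06) and tested as log2(FPKM + 1), a pseudocount of 1, with limma 3.58.1 (R 4.3.3; intensity trend, robust, two-sided, Benjamini-Hochberg over all genes tested). The pseudocount understates differences of low genes. The fits were tested on simulated data. Alternatives were other scaling, pseudocounts and filters, all 12 libraries, the replicate block, library weights, a length trend removed per library, limma-voom on the recovered reads, and each library left out. Chromosomes come from the RefSeq gene table (assembly ARS-UI_Ramb_v3.0), which matched 20874 gene IDs; positions are the deposited ones.

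Named genes were up to 12 per direction by p (a symbol, a mean of at least 2 FPKM, no overlap between diets), up to 3 per list by p, and a fixed set; other list members were chosen after their values were seen. Some genes of these lists are not reported here. Members and lists were chosen with earlier results of these data known.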

Additional observations from a re-analysis of the deposited data

How the results depend on the processing

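No gene passed the adjusted threshold under any alternative except with the length trend removed, where 1 gene, LOC101120481, passed. Leaving out each library gave 360 to 1480 genes at an unadjusted p under 0.05, against 740 with all 6: 1480 without library 3 of 0.5% succinate, 440 without library 2 of 2% and 360 without library 3 of 2%. Without scaling the median of all genes was 0.11 and 79.3% of the 947 genes under that level were higher, against 40.41% of the 740. Same-numbered libraries did not deviate together (correlations of -0.15, -0.12 and -0.03). With 3 libraries per diet these values cannot decide whether the numbers pair the samples, and the labels do not say. With the number as a replicate block 0 genes passed and 547 were under an unadjusted p of 0.05. With the block and the length trend removed the counts were 0 and 695. Of 148 tested genes covered by the naming rule, 3 changed sign of the log2 difference under other settings: KRT8 -0.067 with quantile normalization; C1QB 0.10 without scaling, 0.031 with quantile normalization, 0.0074 with the 5 FPKM filter, 0.16 with the length trend removed, with or without the block, and 0.12 with library weights; SLC16A1 -0.085 with the length trend removed, with or without the block, and -0.12 with library weights. Leaving out each library turned the sign of 14 of these genes, with lowest and highest values of -0.012 and 0.50 for KIT, -0.82 and 0.065 for S100B, -0.0002 and 0.52 for CDH5, -0.014 and 0.25 for ROBO4, -0.45 and 0.11 for JCHAIN, -1.99 and 0.38 for MYH2, -0.45 and 0.42 for KRT8, -0.01 and 0.84 for SBSN, -0.57 and 0.0066 for NFKBIA, -0.38 and 0.26 for C1QB, -0.36 and 0.67 for HINT1, -0.31 and 0.35 for SLC16A1, -0.32 and 0.021 for SDHB and -0.30 and 0.0496 for SUCLG1. Outside the rule CALD1, MYLK, SYNM, SRF, HLF, NR1D2, PER2 and PER3, all close to 0, also had both signs when each library was left out. The cause of these shifts was not tested. Genes near the floor of 3 reads, such as KRT14, allow no statement on direction at this depth.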

Other observations

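In the deposited FPKM, not scaled between libraries, LOC101120481 was 1.44, 0.991 and 1.30 on the basal diet and 6.77, 0.989 and 0.792 on 1% succinate, so 1 library outside the 2% diet also had a high value. NMB was 3.00, 1.36 and 0.936 on the basal diet and 5.72, 1.06 and 6.89 on 1% succinate. PGM2 was 16.2, 17.1 and 16.8 on the basal diet and 17.1, 15.4 and 13.7 on 1% succinate, between the 2 diets compared here except for library 3 of 1%, which lay within the range of the 0.5% libraries. RAB27B was 8.57, 7.51 and 6.30 on the basal diet and 5.04, 8.38 and 2.91 on 1% succinate.

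The clock genes differed among libraries of the basal diet too. NR1D1 was 8.75, 29.9 and 20.6 there, DBP 30.5, 87.7 and 79.9, and ARNTL 5.76, 2.35 and 1.97. Library 1 of the basal diet thus had low NR1D1 and DBP beside high ARNTL, and its libraries 2 and 3 the reverse. On 1% succinate NR1D1 was 4.14, 10.7 and 11.7, DBP 26.0, 29.7 and 32.7, and ARNTL 5.48, 5.51 and 4.67.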
